A study of Rattus norvegicus with 10 samples.

Results

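The 9 genes described here, measured in liver, encode tight junction proteins: the claudins Cldn1, Cldn2, Cldn3, Cldn5, Cldn9, Cldn14 and Cldn18, the membrane protein occludin (Ocln) and the scaffold protein ZO-1 (Tjp1). Their members on the array were all probes whose transcript accession belongs to these symbols, which gave 17 of 41012 probes. Of these, 14 entered the test, as did 22991 probes in all, because at least 1 group had them well above background throughout. The 3 left out were the single probe of Cldn5 and a pair of probes of Cldn18.

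Gene expression was measured in livers of 10 male Sprague Dawley rats on one-colour oligonucleotide arrays, 1 array per rat. The groups were compared at 24 h. The control group (n = 3) received the solvent propylene glycol. The SM group (n = 4) received a single subcutaneous injection of sulfur mustard (SM), an alkylating vesicant, at 3.5 mg/kg, equal to 0.7 of the LD50. The SM + MSTF group (n = 3) received the same injection and, 1 h later, 120 mg/kg MSTF by stomach tube. MSTF is of plant origin. Anemarrhena asphodeloides is the source of its flavonoids, and its salvianolic acids come from Salvia miltiorrhiza. The ages of the rats are not given in the sources used here. Probes well above background made up 51.9% to 58.6% in control, 57.3% to 61.4% in SM and 53.4% to 57.9% in SM + MSTF. The number of arrays limits the precision. All controls and SM + MSTF replicate 3 lay on slide 1, all SM arrays on slide 2 and SM + MSTF replicates 1 and 2 on slide 3. The SM treatment and slide 2 therefore cannot be told apart.

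Tight junctions join neighbouring epithelial cells at the border between their apical and lateral surfaces and decide what passes between the cells. Claudins form the strands, some of them sealing the gap and others opening channels for ions and water, while occludin sits in the strands and ZO-1 ties them to the actin skeleton. In the liver these junctions close the bile canaliculi between hepatocytes and the bile ducts, and so keep bile apart from blood.

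Among the tight junction genes, Cldn18 was the only one with a called probe. It was higher in SM than in control and lower in SM + MSTF than in SM. Called means a Benjamini-Hochberg adjusted p under 0.05 in limma over all probes tested and a change of at least 1.5-fold. In SM versus control this applied to 1 of the 14 member probes, against 2.41% of all probes tested (553 of 22991). It again applied to 1 of 14 in SM + MSTF versus SM, against 1.26% of all probes (290 of 22991). None of the 14 was called in SM + MSTF versus control (0 of 14, against 0% of all probes), and limma gave an unadjusted p under 0.05 for 1 of 14 and for 2193 of 22991. The methods' t-test, unadjusted and with the same fold minimum, called 0 of the 14 and 285 of all probes (1.24%) there. In SM versus control that test called 3 of the 14, the probes of Cldn18 and Cldn9 and A_43_P12641 of Cldn1, against 1131 of all probes (4.92%). It called 2 of the 14 in SM + MSTF versus SM, Cldn18 and the same Cldn1 probe, against 863 of all probes (3.75%). The members were chosen with earlier results of these data known, so a member share above that of all probes is not a result. Over all probes tested, the share with an unadjusted limma p under 0.05 was 16.4% for SM and 9.54% for SM + MSTF, each against control. It was 15.9% for SM + MSTF against SM. Among the 14 member probes such p values numbered 3, 1 and 2 in the same order. The list counts below are also to be read against these shares. The whole-array counts moved when 1 array was left out. In SM versus control they were 135, 65 and 138 without control replicates 1, 2 and 3, and 105, 327, 178 and 255 without SM replicates 1, 2, 3 and 4. For SM + MSTF versus SM they were 98 and 122 without SM replicates 1 and 3, and 115 without SM + MSTF replicate 1. For SM + MSTF versus control they were 1 without control replicate 2, 3 without SM + MSTF replicate 2 and 247 without SM + MSTF replicate 3. A single called probe among 14 is too few to set the tight junction genes apart from the array as a whole. The median log2 fold change of the 14 member probes was -0.03 in SM versus control (all probes 0.03), -0.03 in SM + MSTF versus SM (all probes -0.02) and -0.01 in SM + MSTF versus control (all probes 0.00).

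The arrays of SM and control did not overlap for 3 of the 14 member probes, against 18% of all probes tested. These were 1 probe each of Cldn18, Cldn1 and Cldn9. The groups were apart for 3 of 14 in SM + MSTF versus SM, against 14.7% of all probes, and in SM + MSTF versus control for 1 of 14, against 15.4%. The first were probes of Cldn1, Cldn18 and Tjp1, and the last was the Cldn9 probe. As shares, these counts do not stand out from those of the array as a whole. The comparisons share arrays, so their values are given side by side and not set against each other. Levels below are normalised log2 signals of a probe. They are compared between groups within a probe only.

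**Figure D1:**
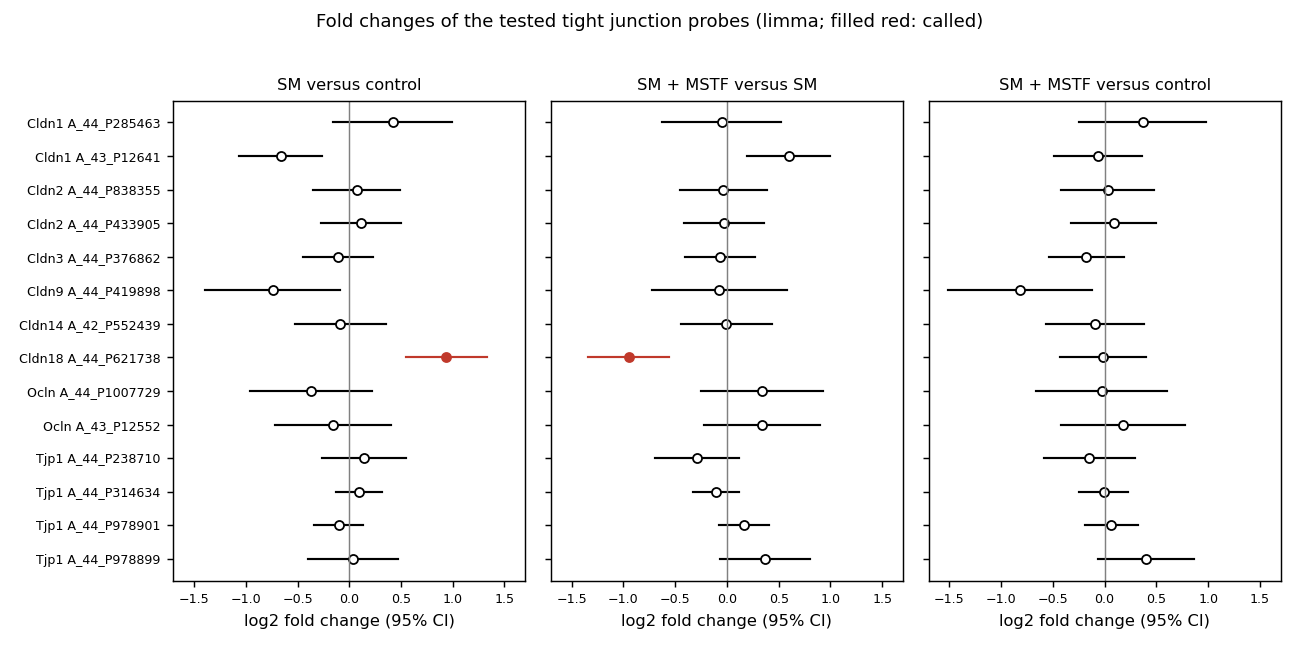
Log2 fold change (x axis) of each of the 14 tested tight junction probes (y axis) in the 3 comparisons. Points are limma estimates with 95% confidence intervals; filled red points were called. Cldn18 stands at 0.94 in SM versus control and at -0.95 in SM + MSTF versus SM, and all other points are open.

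Cldn18 encodes a claudin best known from stomach and lung epithelium, where it limits the passage of protons and other ions between cells. Its probe A_44_P621738 read 7.20, 7.31 and 7.11 in the control rats. In the 4 SM rats it read 8.19, 8.45, 8.09 and 7.86. After SM + MSTF it read 6.85, 7.24 and 7.50. Each SM array was above every control and every SM + MSTF array, while the SM + MSTF values spanned those of the controls. The log2 fold change in SM versus control was 0.94 (standard error 0.17, 95% confidence interval 0.55 to 1.33), which is 1.92-fold (limma adjusted p = 0.0268, higher in 4 of 4 SM rats). SM + MSTF compared with SM gave a log2 fold change of -0.95 (standard error 0.17, 95% confidence interval -1.34 to -0.56, limma adjusted p = 0.0334), with 3 of 3 rats below the SM group. The value in SM + MSTF versus control was -0.01 (95% confidence interval -0.43 to 0.40, limma adjusted p = 0.990). On slide 1, SM + MSTF replicate 3 was at 0.29 against the control mean, and the other SM + MSTF arrays averaged -0.16.

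The Cldn18 result rested on 1 of 3 probes. The probes A_44_P492543 and A_44_P994229, which carry the same transcript accession, were not well above background on any array. Their signals ranged from 1.91 to 3.25 and from 1.93 to 2.05. The call was also close to its threshold. With the slide as a random block the log2 fold change was 0.97 with adjusted p = 0.0790 in SM versus control, and -0.94 with adjusted p = 0.0838 in SM + MSTF versus SM. Over 11 other settings of the fit, this block included, the adjusted p ranged from 0.0138 to 0.0790 in SM versus control, and from 0.0272 to 0.236 in SM + MSTF versus SM. Leaving out any one of control replicates 1 to 3 or SM replicates 1 to 3 ended the call in SM versus control (adjusted p from 0.0526 to 0.0979), with the log2 fold change between 0.84 and 0.99. The call in SM + MSTF versus SM ended without any one of these 6 arrays or of SM + MSTF replicates 1 and 2 (adjusted p from 0.0558 to 0.0946, log2 fold change between -0.97 and -0.78).

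Upstream windows are shown for Cldn18 as the gene with a called probe, for Cldn1 as a gene whose probes disagree (Tjp1 is another, not shown) and for Ocln as the gene with the most copies of CAGGTG among the windows found. These 3 were picked after their values and matches were seen. RefSeq windows (assembly GRCr8) were found for 7 of the 9 genes, and Cldn2 and Cldn9 had none. Each line holds the 250 bases before the gene's start, read in the direction of the gene, with matched motifs in capitals. The Cldn18 window is chr8:109144620-109144869 on the minus strand, the Cldn1 window chr11:87926126-87926375 on the plus strand and the Ocln window chr2:33441199-33441448 on the minus strand. Both strands were searched for 6 motifs. These were CAGGTG, the E-box bound by Snail family repressors, the GC box GGGCGG and the TATA box TATAAA. The others were CCAAT, which NF-Y binds, the AP-1 site TGANTCA with N as any base, and CACGTG, the E-box bound by MYC and USF.
Cldn18: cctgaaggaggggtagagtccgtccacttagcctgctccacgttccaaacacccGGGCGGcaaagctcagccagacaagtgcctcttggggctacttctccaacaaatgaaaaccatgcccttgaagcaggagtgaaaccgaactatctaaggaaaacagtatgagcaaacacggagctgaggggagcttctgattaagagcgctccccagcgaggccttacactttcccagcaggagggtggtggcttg
Cldn1: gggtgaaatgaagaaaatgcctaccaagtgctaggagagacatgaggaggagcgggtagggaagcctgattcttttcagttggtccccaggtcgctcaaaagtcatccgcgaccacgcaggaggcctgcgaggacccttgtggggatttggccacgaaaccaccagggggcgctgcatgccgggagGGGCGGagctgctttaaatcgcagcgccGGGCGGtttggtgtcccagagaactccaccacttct
Ocln: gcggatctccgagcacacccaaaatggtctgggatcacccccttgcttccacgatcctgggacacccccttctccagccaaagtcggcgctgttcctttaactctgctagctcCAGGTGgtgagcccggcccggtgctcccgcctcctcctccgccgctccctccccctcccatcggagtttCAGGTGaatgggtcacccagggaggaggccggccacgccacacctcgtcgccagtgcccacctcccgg
The Cldn18 window held 1 GC box, the Cldn1 window held 2, and the Ocln window held 2 copies of CAGGTG. Of the 7 windows, 4 held GGGCGG (30.5% of all 33469 windows), 3 held CAGGTG (15.9%) and 2 held CCAAT (34.0%). None of the 7 held TATAAA (12.9%), TGANTCA (6.34%) or CACGTG (5.59%). A match describes the letters only, and a missing match says nothing of the factor.

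**Figure D2:**
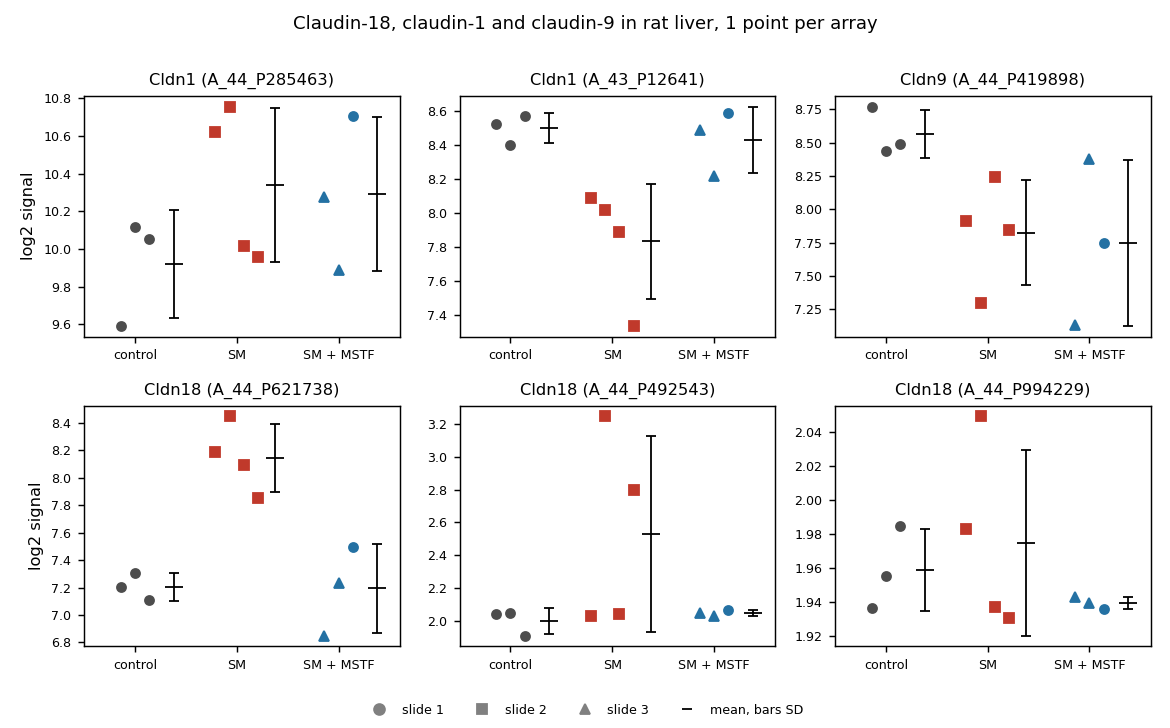
Log2 signal (y axis, a scale of its own in each panel) of every probe of Cldn1, Cldn9 and Cldn18 by group (x axis). Each point is 1 array, its shape marks the slide, and bars show mean and SD. Only A_44_P621738 of the Cldn18 probes was above background, with all SM arrays at 7.86 or more and all other arrays at 7.50 or less.

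Cldn1 encodes a sealing claudin that is abundant between hepatocytes and is a coreceptor of hepatitis C virus in humans. Its probes went different ways. Probe A_43_P12641 read 8.52, 8.40 and 8.57 in control, 8.09, 8.02, 7.89 and 7.34 in SM, and 8.49, 8.21 and 8.59 in SM + MSTF. All SM arrays were below all other arrays, with SM replicate 4 the lowest. SM versus control gave a log2 fold change of -0.66 (standard error 0.18, 95% confidence interval -1.06 to -0.27), yet the limma adjusted p was 0.0897 and limma did not call it. The same probe was at 0.60 in SM + MSTF versus SM (standard error 0.18, limma adjusted p = 0.161), and in SM + MSTF versus control -0.07 (95% confidence interval -0.49 to 0.36, limma adjusted p = 0.932).

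Probe A_44_P285463 of Cldn1, matched to the same transcript, read 9.59, 10.12 and 10.05 in control, 10.62, 10.76, 10.02 and 9.96 in SM, and 10.27, 9.89 and 10.71 in SM + MSTF. The groups overlapped, and within SM replicates 1 and 2 were apart from replicates 3 and 4. For SM versus control its log2 fold change came to 0.42 (standard error 0.26, limma adjusted p = 0.469), and for SM + MSTF versus SM to -0.05 (standard error 0.26, limma adjusted p = 0.938). Against control, SM + MSTF was at 0.37 (limma adjusted p = 0.696). Leaving out 1 array gave 0.25 to 0.54 for SM against control, lowest without control replicate 1, and 0.16 to 0.57 for SM + MSTF against control, with 0.21, 0.57 and 0.16 without control replicate 1 and SM + MSTF replicates 2 and 3. Over the 10 arrays the signals of both Cldn1 probes had a Pearson r of 0.0449. No direction is therefore given for Cldn1 as a gene.

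Cldn9 encodes a claudin best known from the inner ear, where it keeps potassium from leaking between cells. It read 8.77, 8.44 and 8.49 in control, 7.91, 7.30, 8.24 and 7.85 in SM, and 7.13, 8.38 and 7.75 in SM + MSTF. Every array of both exposed groups was below the lowest control. SM versus control gave a log2 fold change of -0.74 (standard error 0.29, 95% confidence interval -1.39 to -0.09, limma adjusted p = 0.238). It was -0.81 in SM + MSTF versus control (standard error 0.31, 95% confidence interval -1.51 to -0.12, limma adjusted p = 0.469) and -0.50 without SM + MSTF replicate 1. SM + MSTF versus SM gave -0.07 (standard error 0.29, limma adjusted p = 0.916). With 1 array left out the latter ranged from -0.39 to 0.24, highest without SM + MSTF replicate 1. No comparison was called by limma, while the methods' t-test called SM versus control. On slide 1, which held controls and 1 treated rat, SM + MSTF replicate 3 was at -0.82 against the control mean, and the other SM + MSTF arrays averaged -0.81 although they lay far apart, at 7.13 and 8.38.

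Cldn3, Cldn14 and Cldn5 complete the sealing claudins. Cldn3, found between hepatocytes and in bile ducts, read 11.04, 10.88 and 10.35 in control, 10.53, 10.66, 10.72 and 10.68 in SM, and 10.65, 10.50 and 10.59 in SM + MSTF. Both exposed groups lay within the range of the controls, which differed by more among themselves than the groups did. Its log2 fold changes were -0.11 in SM versus control (95% confidence interval -0.45 to 0.23), -0.07 in SM + MSTF versus SM (-0.10 to -0.023 with 1 array left out) and -0.18 in SM + MSTF versus control. With control replicate 1, 2 or 3 left out the first was 0.030, -0.048 or -0.31 and the last -0.036, -0.11 or -0.38. Cldn14, mutated in inherited deafness, ranged from 9.39 to 9.85 in control, from 9.19 to 9.70 in SM and from 9.09 to 9.85 in SM + MSTF. Its log2 fold changes were -0.09, -0.01 and -0.09 in the same order, each with limma adjusted p of at least 0.875. With 1 array left out they ranged from -0.17 to 0.062, from -0.20 to 0.18 and from -0.29 to 0.092.

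Cldn5 encodes the chief claudin of blood vessel endothelium. It was well above background on 7 of the 10 arrays, 2 of 3 in control, 3 of 4 in SM and 2 of 3 in SM + MSTF, and so was not tested. Its signals were 4.04, 5.11 and 4.42 in control, 3.88, 5.63, 4.58 and 4.97 in SM, and 4.79, 5.98 and 4.04 in SM + MSTF. The spread within each group was wider than the gaps between group means.

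Cldn2 differs in role from the sealing claudins, since it forms channels for cations and water and in rat liver follows a gradient along the lobule. Probe A_44_P838355 read 10.78, 10.68 and 11.01 in control, 10.98, 10.79, 10.71 and 11.09 in SM, and 11.11, 11.08 and 10.37 in SM + MSTF. Probe A_44_P433905 ranged from 7.52 to 7.78 in control, from 7.47 to 8.02 in SM and from 7.43 to 8.00 in SM + MSTF. SM + MSTF replicate 3 was the lowest of all 10 arrays on both probes, and the signals of these probes had a Pearson r of 0.821 over the 10 arrays. In SM versus control the log2 fold changes were 0.07 (95% confidence interval -0.35 to 0.49) and 0.12 (95% confidence interval -0.27 to 0.50). The Cldn2 values in SM + MSTF versus SM were -0.04 and -0.03, those in SM + MSTF versus control 0.03 and 0.09, and the limma adjusted p was at least 0.791 in every comparison of Cldn2. Single arrays moved all of these. Those in SM versus control were -0.0028 and 0.035 without control replicate 2, the first 0.16 without control replicate 3 and the second 0.22 without SM replicate 2. Without SM + MSTF replicate 3 they were 0.20 and 0.14 in SM + MSTF versus SM and 0.27 and 0.25 in SM + MSTF versus control.

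Ocln, a strand protein whose loss leaves strands in place but alters their regulation, was measured by a pair of probes with a Pearson r of 0.936 over the 10 arrays. Probe A_44_P1007729 read 9.07, 9.45 and 9.78 in control, 9.20, 9.21, 8.78 and 9.08 in SM, and 9.30, 8.88 and 10.03 in SM + MSTF. Probe A_43_P12552 read 6.96, 7.50 and 7.80 in control, 7.44, 7.45, 6.87 and 7.27 in SM, and 7.53, 7.21 and 8.05 in SM + MSTF. On both, SM + MSTF replicate 3 was highest and SM replicate 3 lowest, and the groups overlapped. The log2 fold changes in SM versus control were -0.37 (95% confidence interval -0.96 to 0.22) and -0.16 (95% confidence interval -0.72 to 0.40). Without control replicate 3 they were -0.19 and 0.030, the latter probe being at -0.39 without control replicate 1 and at -0.030 without SM replicate 3. Both Ocln probes were at 0.34 in SM + MSTF versus SM, at 0.03 and 0.11 without SM + MSTF replicate 3 and at 0.60 and 0.53 without SM + MSTF replicate 2, with A_43_P12552 at 0.21 without SM replicate 3. Against control the Ocln values of SM + MSTF were -0.03 and 0.18, and the limma adjusted p was at least 0.513 for both probes in every comparison. SM + MSTF replicate 3, the treated rat on the slide of the controls, was 0.60 and 0.63 above the control mean, while the others averaged -0.34 and -0.05.

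**Figure D3:**
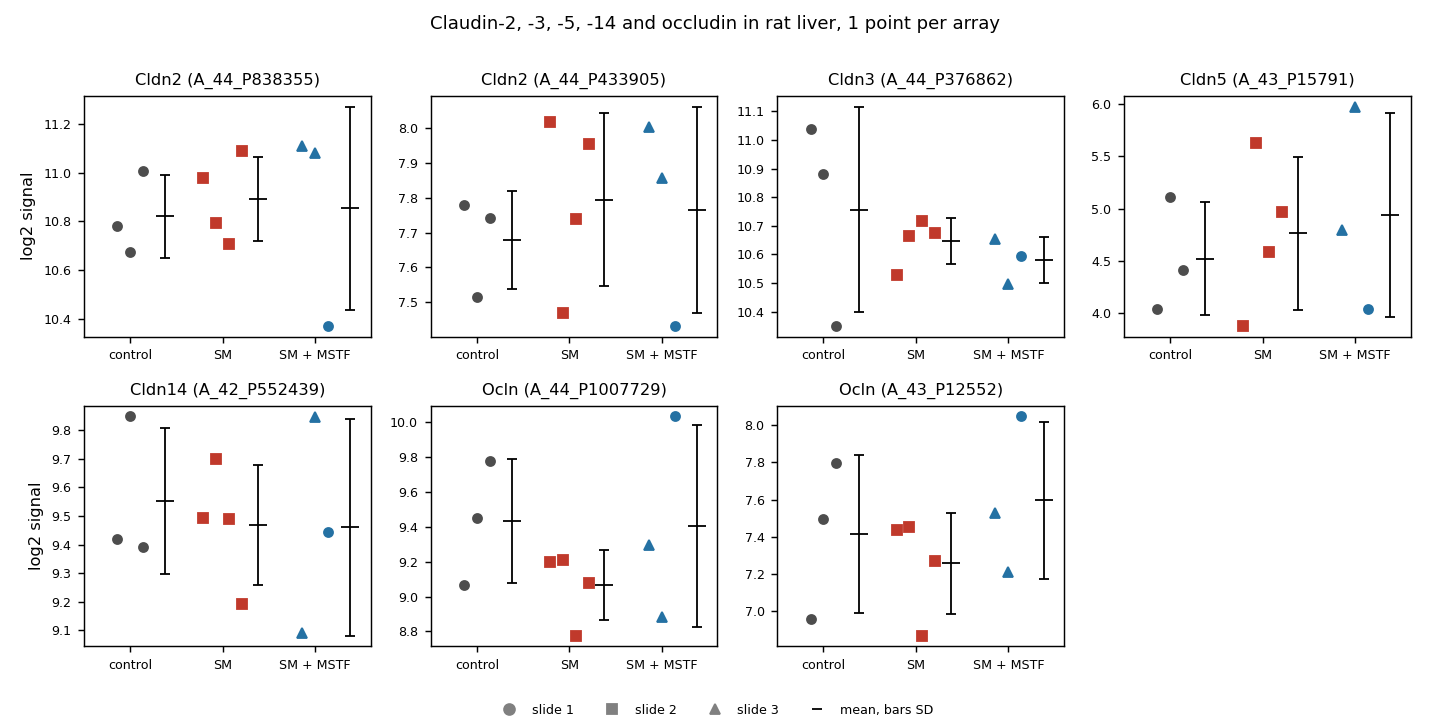
Log2 signal (y axis, a scale of its own in each panel) of the probes of Cldn2, Cldn3, Cldn5, Cldn14 and Ocln by group (x axis). Each point is 1 array, its shape marks the slide, and bars show mean and SD. The groups overlap in every panel, and SM + MSTF replicate 3 (circle) is lowest for both Cldn2 probes and highest for both Ocln probes.

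Tjp1 encodes ZO-1, the scaffold that binds claudins and occludin from inside the cell. Its 4 probes carry the same accession but did not follow one pattern, with Pearson r between pairs from -0.851 to 0.709 over the 10 arrays. Probe A_44_P238710 read 7.30, 7.24 and 6.60 in control, 7.41, 7.20, 7.25 and 6.89 in SM, and 6.92, 6.79 and 6.99 in SM + MSTF. Probe A_44_P978899 read 5.73, 6.01 and 6.49 in control, 5.85, 6.05, 6.12 and 6.43 in SM, and 6.32, 6.48 and 6.64 in SM + MSTF. Control replicate 3 was the lowest control on the first and the highest on the second. The other probes, A_44_P314634 and A_44_P978901, ranged from 6.41 to 6.73 and from 6.13 to 6.58 over all arrays.

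In SM versus control the Tjp1 log2 fold changes were 0.14, 0.09, -0.10 and 0.03 for A_44_P238710, A_44_P314634, A_44_P978901 and A_44_P978899. For SM + MSTF versus SM they were -0.29, -0.10, 0.17 and 0.37, and for SM + MSTF versus control -0.15, -0.01, 0.06 and 0.40. The limma adjusted p was at least 0.373 throughout. Single controls moved these values. With 1 array left out, SM versus control ranged from -0.082 to 0.27, from 0.023 to 0.18, from -0.16 to -0.027 and from -0.14 to 0.24 in the same order of probes. The ranges in SM + MSTF versus control were -0.37 to -0.018, -0.079 to 0.078, 0.0064 to 0.14 and 0.23 to 0.61. Each range had one end without control replicate 3 and the other without control replicate 1, or replicate 2 for A_44_P978901. In SM + MSTF versus SM, A_44_P314634 was at -0.065 without SM + MSTF replicate 1 and A_44_P978901 at 0.10 without SM replicate 2. For A_44_P978901 the SM + MSTF arrays, from 6.46 to 6.53, lay just above the SM arrays, from 6.13 to 6.44, a difference of 0.17 (95% confidence interval -0.07 to 0.41). No direction is given for Tjp1, since its probes disagreed.

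**Figure D4:**
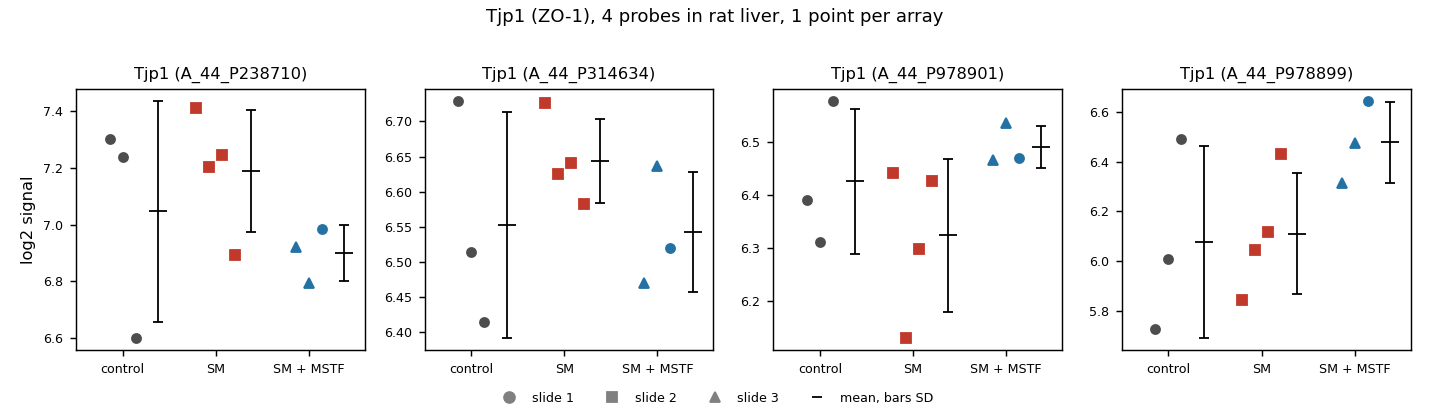
Log2 signal (y axis, a scale of its own in each panel) of the 4 Tjp1 probes by group (x axis). Each point is 1 array, its shape marks the slide, and bars show mean and SD. All groups overlap on A_44_P238710 and A_44_P978899, where control replicate 3, at 6.60 and 6.49, is the lowest and the highest control.

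The rest of the claudin family showed no probe called by limma. Of 15 further genes listed with this family on the array, 8 were nowhere well above background (Cldn6, Cldn11, Cldn15, Cldn16, Cldn17, Cldn19, Cldn22 and Cldn34e) and 6 were tested. Probe A_44_P1010902 of Cldn7 was not tested, being well above background on 0 of 3 control, 3 of 4 SM and 1 of 3 SM + MSTF arrays. It read 3.46 to 3.72 in control, 2.17 to 4.99 in SM and 3.04 to 4.70 in SM + MSTF. The 6 include Cldnd1, a claudin domain gene and not a claudin itself, with means of 8.11, 8.21 and 8.29 in control, SM and SM + MSTF. The median log2 fold change of the 6 came to 0.16 for SM versus control (all probes 0.03), with 4 of 6 values above 0. In SM + MSTF versus SM it came to -0.10 (all probes -0.02). Unadjusted, limma gave a p under 0.05 to 1 of 6 in SM + MSTF versus SM and to 0 of 6 in either comparison with control, and the methods' t-test called 0. Cldn23 had means of 9.88, 10.10 and 9.61 in control, SM and SM + MSTF, Cldn4, a claudin of bile duct cells, 7.17, 7.43 and 7.19, and Cldn8 5.13, 5.46 and 5.34. The Cldn8 mean in SM rests on replicate 1 at 6.47, against 5.05, 5.30 and 5.04, and without it SM versus control was at 0.0012 (0.21 without control replicate 2). Other claudins moved too in SM versus control, Cldn4 from 0.26 to 0.16 without SM replicate 1, and Cldn23 from 0.23 to 0.38 and 0.065 without control replicates 1 and 3. The limma adjusted p was at least 0.259 for these genes in every comparison.

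Among 8 tested genes of other tight junction membrane proteins, limma called 0 in any comparison, with medians of 0.02 (SM versus control) and -0.06 (SM + MSTF versus SM). Jam3 was the 1 gene with an unadjusted limma p under 0.05, in SM versus control, and the methods' t-test called 0. Jam3, a junctional adhesion molecule, read 6.76, 6.67, 6.79 and 6.79 in SM against 6.43, 6.29 and 6.62 in control (log2 fold change 0.31, limma adjusted p = 0.275). The adhesion molecule F11r was at -0.12 in SM versus control, and Lsr, which marks the meeting points of 3 cells, at 0.15. With 1 array left out they ranged from -0.27 to -0.027 and from 0.075 to 0.23. In SM + MSTF versus SM, Crb3 of the Crumbs polarity complex was at -0.34 and the junction receptor Cxadr at -0.19. Single arrays moved both, Crb3 to -0.10 without SM + MSTF replicate 3, and Cxadr to -0.32 without SM + MSTF replicate 1 and to -0.09 and -0.12 without SM replicate 4 and SM + MSTF replicate 3.

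Of 21 tested scaffold and polarity genes, 1 was called in SM versus control, and 16 of 21 values were above 0, with a median of 0.18 (all probes 0.03). The 1 of 21 stands against 2.41% of all probes. Unadjusted limma p values were under 0.05 for 5 of 21 with SM and 2 with SM + MSTF against control, with 5 in SM + MSTF versus SM, and the methods' t-test called 1, 0 and 1. The called gene was Amotl2, an angiomotin family protein that links junctions to actin. It was well above background in 4 of 4 SM rats (4.75, 5.04, 4.40 and 4.68) and in 0 of 3 control and 0 of 3 SM + MSTF rats. It passed the filter only through the group in which it was high, and its control level lies at background, so its p is of little weight. Amotl2 was at least 1.26-fold higher in SM than in control, where the control level is taken as the dimmest signal that still passed as well above background (limma adjusted p = 0.0333), and at least 1.27-fold lower in SM + MSTF than in SM (limma adjusted p = 0.0697, not called). The latter was called with 75th percentile scaling (adjusted p 0.0240) and by the methods' t-test, unadjusted. The Amotl2 call ended without any one of control replicates 1 to 3 or SM replicates 1, 2 and 4 (adjusted p from 0.0577 to 0.120). It also ended with normexp (log2 fold change 0.19, adjusted p 0.187), no filter (0.0614) and the replicate block (0.0758). Slide as a random block (0.0994) and the methods' t-test after Benjamini-Hochberg (0.128) ended it as well. The normexp value is below the bound of 1.26-fold, so that bound does not hold under normexp. The other Amotl2 probe, A_43_P18504, was well above background on 1 array of each group and was not tested. It read 4.88, 4.62 and 4.39 in control and 4.04, 4.60, 4.45 and 4.21 in SM, so its SM mean (4.33) was not above its control mean (4.63). Pals1, of the Crumbs complex, was at 0.41 in SM versus control with no overlap on A_42_P802591 (limma adjusted p = 0.111) and at -0.35 on A_44_P326366 (limma adjusted p = 0.611), so it has no direction. Ybx3, a transcription factor that ZO-1 binds, was at 0.41 in SM versus control (limma adjusted p = 0.487) and at 0.26 without SM replicate 3. Pard6a, of the Par polarity complex, was at -0.60 in SM + MSTF versus SM (limma adjusted p = 0.240) and at -0.29 without SM + MSTF replicate 3.

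Adherens and gap junction proteins gave 0 genes of 14 called by limma, with medians of -0.05 (SM versus control) and 0.04 (SM + MSTF versus SM). Unadjusted limma p values were under 0.05 for 2 and 3 genes where SM and SM + MSTF were set against control and for 2 in SM + MSTF versus SM, and the methods' t-test called 0. The connexin Gja4 read 8.58, 8.70, 8.61 and 8.69 in SM, above all controls at 8.32, 8.22 and 8.04 (log2 fold change 0.46, limma adjusted p = 0.109). Nectin2, an adhesion molecule of adherens junctions, was at -0.69 in SM versus control, with control replicate 1 at 9.75 and the other controls at 8.09 and 8.60 (limma adjusted p = 0.472), at -0.22 without control replicate 1 and at -1.05 without control replicate 2. Ctnnd1, the catenin p120, was at 0.38 in SM versus control on A_44_P297596 and at -0.41 in SM + MSTF versus SM, the first value being 0.23 without control replicate 3. Its probe A_44_P236532 was at 0.04 and -0.18. Pvr was at 0.64 in SM + MSTF versus SM (0.43 to 0.89 with 1 array left out). Its SM arrays ran from 5.11 to 6.50 and so spanned the controls, at 5.97 to 6.09. Among 13 tested regulators of claudin and occludin genes, limma called 0, with 1, 2 and 3 unadjusted p values under 0.05 in the same order and 0 by the methods' t-test. Medians were 0.05 for both SM versus control and SM + MSTF versus SM. The repressor Twist1 was well above background on 4 of 4 SM arrays but on 1 of 3 control and 1 of 3 SM + MSTF arrays, and nowhere on its other probe, and limma did not call it. The kinase Mylk, which contracts the actin belt, was at 0.37 in SM versus control (0.21 to 0.54 with 1 array left out) and the cytokine Il1b at -0.33 (-0.57 to -0.12). Without control replicate 3 or SM replicate 1 Mylk was at 0.21 or 0.23, and Il1b was at -0.19, -0.12 or -0.57 without control replicate 2, SM replicate 2 or SM replicate 4. Il1b was at 0.63 (0.42 without SM replicate 2) and Mylk at -0.49 in SM + MSTF versus SM, neither called.

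**Figure D5:**
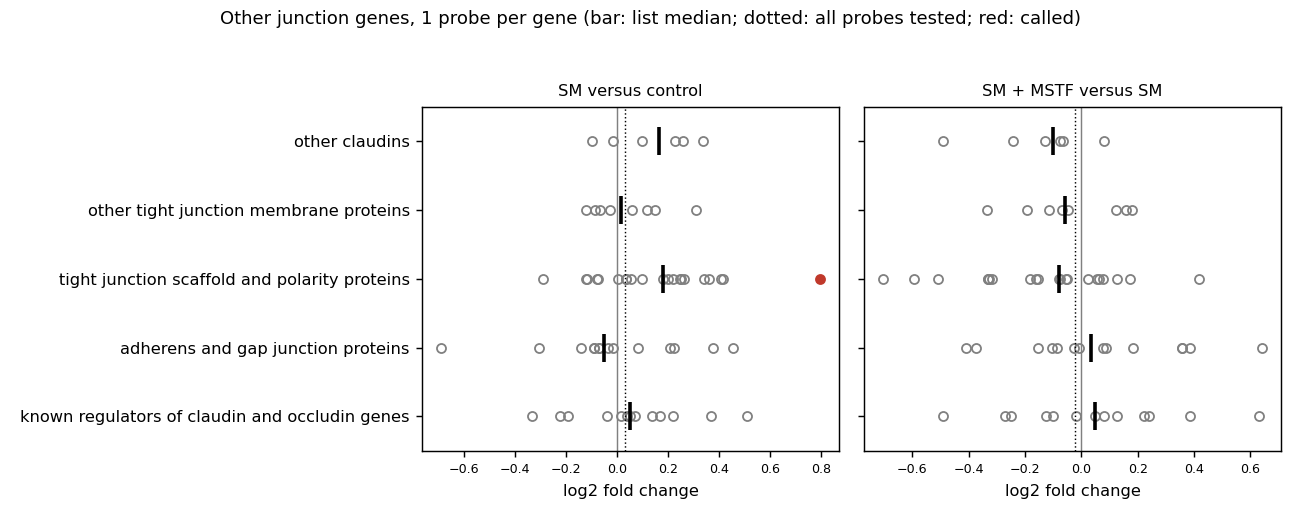
Log2 fold change (x axis) of each tested gene of 5 lists of junction genes and their regulators (y axis), 1 probe per gene. Bars mark list medians, the dotted line the median of all probes tested, and filled red a called gene. The only filled point is Amotl2 in SM versus control, drawn at its fitted value although its control level is only bounded.

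Each marker list is led by the gene of its brightest probe, which does not rank genes by abundance. The sums add linear signals, so 1 probe can make up most of a sum. That holds for Pgc in the stomach sum, Napsa in lung, Kdr in endothelium and Clec4f in leukocytes. Of 10 hepatocyte markers, all were well above background on all arrays, with Tf (transferrin) giving the brightest signal, and their summed signals were 2373000 to 2479000 in control, 2303000 to 2377000 in SM and 2208000 to 2399000 in SM + MSTF. Of these 10, limma called 0 in any comparison, with 0 and 2 unadjusted p values under 0.05 in SM and SM + MSTF against control and for 1 between the exposed groups, and 0 calls by the methods' t-test. Tf and other hepatocyte markers are among the brightest probes, where quantile normalisation holds values nearly fixed (Tf at 18.72 on all SM + MSTF arrays). Whether hepatocyte content was steady therefore cannot be read from these sums or counts. In bulk liver, fewer cells of a type and less RNA per cell cannot be told apart. For the organs in which Cldn18 is chiefly known, 6 of 8 stomach markers were nowhere well above background (Gkn1, Gkn2, Tff2, Atp4a, Atp4b and Cblif), as were Sftpa1 and Scgb3a2 of 10 lung markers. The summed stomach signal, led by Pgc (pepsinogen C), was 1645, 1559 and 1347 in control, 1135, 981, 1202 and 1088 in SM, and 1142, 1078 and 1537 in SM + MSTF. All SM arrays were below all controls and overlapped SM + MSTF. Of 2 stomach markers tested, unadjusted limma p values were under 0.05 for 2 and 1 in SM and SM + MSTF against control and for 1 between the exposed groups, and the methods' t-test called 1, 0 and 0. One of these 2, Tff1, was called, against 2.41% of all probes. It fell in SM versus control by 0.98 on the log2 scale (standard error 0.17, limma adjusted p = 0.0220), a call that ended without any one of control replicates 1 to 3 or SM replicates 1 and 4 (adjusted p from 0.0515 to 0.0830). The Tff1 call also ended with normexp (log2 fold change -0.51, under the fold minimum), the replicate block (adjusted p 0.0951), slide as a random block (0.0716) and the methods' t-test after Benjamini-Hochberg (0.101). The lung sum, led by Napsa, was 2311 to 3011 in control, 2052 to 3933 in SM and 3101 to 3944 in SM + MSTF, which lay above all controls, with 0 of 6 tested genes called by limma, unadjusted or by the methods' t-test.

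Bile duct cells also carry several of these claudins. Of their markers, led by Slc10a2, 5 of 7 tested were higher in SM than in control (median 0.26) and 6 of 7 lower in SM + MSTF than in SM (median -0.15). Among these limma called 0 of 7, with 1 unadjusted p under 0.05 in SM + MSTF versus SM, 0 against control for either group and 0 calls by the methods' t-test. The bile duct list itself includes the claudins Cldn4, Cldn7 and Cldn10, so it is not a measure apart from the claudins. Cldn4 is thus counted here and among the further claudins above. Endothelial markers, led by Kdr, summed to 22470 to 22670 in control, 22150 to 23900 in SM and 18690 to 23680 in SM + MSTF, and limma called 0 of 12 (unadjusted 3 for SM and 0 for SM + MSTF against control and 1 in SM + MSTF versus SM, the methods' t-test 1, 0 and 0). Of the pericentral hepatocyte markers, the zone in which rat Cldn2 is strongest, 1 of 11 was called in SM + MSTF versus SM, against 1.26% of all probes, with unadjusted limma p values under 0.05 for 2 and 2 of 11 in SM and SM + MSTF against control and for 3 between the exposed groups, and 1, 0 and 1 calls by the methods' t-test. The called gene, Rhbg, an ammonium transporter, was lower in SM + MSTF than in SM (log2 fold change -0.86, limma adjusted p = 0.0431). The Rhbg call ended without any one of control replicate 1, SM replicates 1 to 4 or SM + MSTF replicates 1 to 3 (adjusted p from 0.0623 to 0.137). It also ended with normexp (0.0560), no filter (0.0740), only probes well above background on all arrays (0.0534), the replicate block (0.0839), slide as a random block (0.107) and the methods' t-test after Benjamini-Hochberg (0.120). The pericentral sum, led by Cyp2e1, ran from 131000 to 184400 in control, 130200 to 176900 in SM and 121100 to 189200 in SM + MSTF. The periportal sum, led by Alb, ran from 526100 to 546900, from 474900 to 532500 and from 497700 to 516300, with 0 of 10 called by limma, unadjusted or by the methods' t-test. Alb is also among the brightest probes, so the limit given for the hepatocyte sum applies to the periportal sum.

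Leukocyte markers, led by Clec4f of Kupffer cells, summed to 62140 to 85770 in control, 42490 to 72350 in SM and 65910 to 80610 in SM + MSTF. Of 14 tested, 12 were lower in SM than in control (median -0.32) and 12 higher in SM + MSTF than in SM (median 0.39). Unadjusted limma p values were under 0.05 for 5 of 14 in each of these comparisons, and the methods' t-test called 4 and 2 of 14, against 4.92% and 3.75% of all probes. These counts take rises and falls alike. Cd8b ran opposite to the 12. Its SM arrays, at 5.88 to 6.36, were above all controls (5.45 to 5.59) and all SM + MSTF arrays (5.21 to 5.78). Limma called 1 of 14 in each of these comparisons, against 2.41% and 1.26% of all probes, and the gene was Klrd1, a receptor of natural killer cells. It read 5.35, 5.54 and 5.46 in control, 4.46, 3.64, 4.30 and 4.53 in SM, and 5.09, 5.27 and 5.78 in SM + MSTF. All SM arrays were below all others, but only 2 of 4 were well above background. Klrd1 was lower in SM than in control (limma adjusted p = 0.0277) and higher in SM + MSTF than in SM (limma adjusted p = 0.0455). It passed the filter only through the groups in which it was high, so these p values are of little weight. The fitted log2 differences of -1.22 and 1.15 rest in part on signals at background, and with normexp they were -0.37 and 0.30 (adjusted p 0.0976 and 0.190, not called), so its size is not settled. The first Klrd1 call ended without any one of control replicates 1 to 3 or SM replicates 1 and 3 (adjusted p from 0.0637 to 0.110). The other ended without any one array but SM replicate 2 (adjusted p from 0.0531 to 0.112). With slide as a random block the adjusted p was 0.0912 and 0.102, so both calls ended. No filter, the replicate block and the methods' t-test after Benjamini-Hochberg ended both as well, and 75th percentile scaling and fitting only the 2 groups ended the call in SM + MSTF versus SM. Stellate cell and fibroblast markers, led by Col3a1, summed to 27340 to 30680 in control, all above the SM arrays at 21180 to 23580, and to 17850 to 29330 in SM + MSTF, with 0 of 8 called by limma (unadjusted 2 for SM and 3 for SM + MSTF against control and 1 in SM + MSTF versus SM, the methods' t-test 2, 0 and 0). Pancreas markers (led by Cpb1) and mesothelial markers (led by Gpm6a) had 0 genes called by limma (unadjusted 2, 0 and 1 in the same order for pancreas and 0 for mesothelium) or by the methods' t-test, and their sums overlapped between all groups, at 682 to 1423 and 864 to 2091. The part of these cell types in the values of the tight junction genes was not tested.

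For the brightest probe of each gene, the named genes with the most similar signal were found among probes well above background on all 10 arrays. Pearson r over the 10 arrays is a description, since these arrays share groups and slides. Nearest to Cldn18 were Tram1 (r = 0.973), Ranbp10 (r = 0.961) and Cym (r = 0.960). Nearest to Cldn1 on A_44_P285463 were Cpn2 (r = 0.948), Panx2 and Rab17. For Cldn2 these were Cdc42ep5 (r = 0.962), Ankh and Tmprss2, for Cldn3 Znrf4 (r = 0.919), Foxe1 and Cnot6l, and for Cldn9 Men1 (r = 0.900), Ccdc93 and Fam53b. For Cldn14 they were Serpine2 (r = 0.906), Hmgcs1 and Idi1, for Ocln Ift25 (r = 0.959), Fbxo9 and Lsm1, and for Tjp1 on A_44_P238710 Ctnnd1 (r = 0.934), Ankrd13c and Stag2. No tight junction gene was among the nearest genes of another.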

How the data were processed

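Liver RNA of 10 rats was hybridised to Agilent Whole Rat Genome oligo arrays (Cy3). The authors read spots with Feature Extraction 10.7, which gives a background-subtracted intensity and other marks (well above background, not uniform, saturated) for each spot, per the file headers. The authors then applied quantile normalisation in GeneSpring and deposited log2 values, used here as an alternative. Samples were grouped by the labels. Here, control and not uniform spots were left out, the 10 arrays were brought to 1 distribution of processed intensity by quantile normalisation, and log2 values of 43379 spots were averaged into 41012 probes. RefSeq accessions (GRCr8 table) named 17512 probes. Probes passed the filter if a whole group's arrays, in 1 group or more, all had them well above background. The 22991 that passed were fitted with limma 3.58.1 in R 4.3.3, all 10 arrays in 1 fit, with Benjamini-Hochberg adjustment. The procedure was tested on simulated data.

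Lists were 5 of junction genes and regulators and 11 of cell type markers, described by counts, medians over 1 probe per gene (the brightest) and summed linear signal. Some genes stand in more than 1 list, such as Cldn4, Esam, Cdh1 and Hnf4a. Named were all members, every list gene with a called probe, for each junction list the 3 tested genes with the largest change in SM versus control and the 2 in SM + MSTF versus SM, and each marker list's gene of brightest probe. The members and lists were chosen with earlier results of these data known. A bound is the mean of the brighter group over the dim group's lowest signal well above background (or its own, if higher) on each array. Alternatives were 75th percentile scaling, the deposited values, normexp (offset 50) on median signals, other filters on dim probes, only the groups compared, blocks for slide and replicate number, the methods' t-test, no fold minimum, not uniform spots kept, and each array left out. Leaving out the not uniform spots after normalisation was added after seeing the data. The array design used an older assembly than GRCr8, so probes have no coordinates here.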

Additional observations from a re-analysis of the deposited data

How the results depend on the processing

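The limits are few arrays, SM and slide 2 that cannot be told apart, and bulk tissue. The count of all probes called in SM versus control (553) was 226 with normexp, 342 with no filter, 336 with only probes well above background on all 10 arrays, 53 with the replicate block, 85 with slide as a random block, 1131 with the methods' t-test unadjusted, 320 with that test after Benjamini-Hochberg, and 65 to 717 with 1 array left out. For SM + MSTF versus control (0 by limma; 2193 unadjusted) it was 158 with slide as a fixed block (which rests on SM + MSTF replicate 3 alone, assumed to vary like the other arrays), 285 with the methods' t-test unadjusted and 0 to 247 with 1 array left out. For SM + MSTF versus SM (290) it was 60 with normexp, 140 on all 10 arrays, 155 with only the 2 groups, 64 with the replicate block, 102 with slide as a random block, 863 with the methods' t-test unadjusted, 13 after Benjamini-Hochberg and 98 to 301 with 1 array left out. Of these calls, 40.5% were higher in SM versus control (46.5% with 75th percentile scaling, 17.7% with normexp) and 25.5% in SM + MSTF versus SM (15.3% and 31.7%). The larger part was instead higher in SM versus control with no filter (50.9%), slide as a random block (51.8%) and without control replicates 1, 2 and 3 (56.3%, 50.8% and 52.2%) or SM replicates 1 and 2 (51.4% and 59.0%), and in SM + MSTF versus SM with the replicate block (51.6%). The 1 member probe called in SM versus control, of Cldn18, was 0 with no filter, replicate block, slide as a random block or the methods' t-test after Benjamini-Hochberg, 3 with the methods' t-test unadjusted and 0 to 1 with 1 array left out. For SM + MSTF versus SM it was 0 with normexp, no filter, only the 2 groups, replicate block, slide as a random block or the methods' t-test after Benjamini-Hochberg, 2 unadjusted and 0 to 1 with 1 array left out. Leaving out the not uniform spots after normalisation, chosen after seeing the data, gave 552, 0 and 290 calls. Of 938 values of members under the alternatives, 855 kept their side of the threshold, 24 lost a call, 3 gained 1 and 56 changed sign, and of 1439 values of named list genes these were 1354, 60, 2 and 23. No call changed sign. Amotl2 has no value in SM + MSTF versus control, since both groups were not well above background. Twist1 was well above background on 1 of 3 SM + MSTF arrays, so its values below are uncertain. With the replicate block the sign changed for SM versus control Cldn14 0.0067, Tjp1 A_44_P978899 -0.074 and for SM + MSTF versus SM Cldn2 A_44_P838355 0.028, Cldn2 A_44_P433905 0.024. With the slide as a fixed block the sign changed for SM + MSTF versus control Cldn1 A_43_P12641 0.091, Cldn2 A_44_P838355 -0.45, Cldn2 A_44_P433905 -0.25, Cldn18 0.29, Ocln A_44_P1007729 0.60, Cldn23 0.083, F11r -0.12, Ctnnd1 0.014, Mylk 0.023, Klrd1 0.33. With the slide as a random block the sign changed for SM + MSTF versus control Cldn2 A_44_P838355 -0.035, Cldn18 0.031, Ocln A_44_P1007729 0.060. With the normexp background correction the sign changed for SM + MSTF versus control Cldn18 0.037, Ocln A_44_P1007729 0.016, Tjp1 A_44_P978901 -0.0095 and for SM + MSTF versus SM Tjp1 A_44_P978901 -0.0028. With the deposited log2 values the sign changed for SM + MSTF versus SM Cldn14 0.0024. With the 75th percentile scaling the sign changed for SM + MSTF versus SM Twist1 -0.080. In SM versus control, the ranges that crossed 0 with 1 array left out were Cldn2 A_44_P838355 -0.0028 to 0.16, Cldn3 -0.31 to 0.030, Cldn14 -0.17 to 0.062, Ocln A_43_P12552 -0.39 to 0.030, Tjp1 A_44_P238710 -0.082 to 0.27, Tjp1 A_44_P978899 -0.14 to 0.24. In SM + MSTF versus control, the ranges that crossed 0 with 1 array left out were Cldn1 A_43_P12641 -0.15 to 0.040, Cldn2 A_44_P838355 -0.094 to 0.27, Cldn2 A_44_P433905 -0.033 to 0.25, Cldn14 -0.29 to 0.092, Cldn18 -0.16 to 0.16, Ocln A_44_P1007729 -0.34 to 0.23, Ocln A_43_P12552 -0.051 to 0.37, Tjp1 A_44_P314634 -0.079 to 0.078, Cldn4 -0.091 to 0.070, Lsr -0.038 to 0.11, F11r -0.11 to 0.13, Ybx3 -0.073 to 0.26, Nectin2 -0.70 to 0.14, Ctnnd1 -0.18 to 0.11, Mylk -0.28 to 0.053, Klrd1 -0.27 to 0.076. In SM + MSTF versus SM, the ranges that crossed 0 with 1 array left out were Cldn1 A_44_P285463 -0.26 to 0.15, Cldn2 A_44_P838355 -0.16 to 0.20, Cldn2 A_44_P433905 -0.15 to 0.14, Cldn9 -0.39 to 0.24, Cldn14 -0.20 to 0.18, Cldn8 -0.27 to 0.21, Jam3 -0.21 to 0.027, Gja4 -0.25 to 0.012, Twist1 -0.11 to 0.15.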
